A study of Homo sapiens with 18 samples.

Results

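The 2069 regions described here are those of human chromosome 19 that lie outside the promoters of zinc finger genes with symbols starting with ZNF. They were selected by position from the 115087 regions of the deposited table: 2315 regions lay on chromosome 19 (build hg19, the same as GRCh37), and 246 of these within 1 kb of a transcription start site of a protein-coding ZNF gene were left out. The chromosome itself was chosen with its changes in these libraries already known, so its difference from other chromosomes is given as a description, with no test. Open chromatin was profiled by ATAC-seq, where Tn5 transposase cuts and tags accessible DNA, in the SCC1, SCC6 and SCC25 lines of head and neck squamous cell carcinoma (HNSCC). The cultures were given cetuximab, an antibody that blocks the epidermal growth factor receptor (EGFR), at 100 nM, or PBS as the untreated control, daily for 5 days. The files used held 17 libraries, 3 for each line and treatment but only 2 for SCC1 PBS, whose replicate 2 was not analysed here. All groups are established lines grown in the same medium with serum, and nothing says that replicates came from separate cultures, so p-values measure the spread between these libraries, which may be technical.

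Chromosome 19 is among the most gene-dense and GC-rich human chromosomes and holds large clusters of zinc finger genes. Open chromatin falls into promoters, where transcription starts and which are often open in many cell types, and distal regions, which include enhancers and are often particular to a cell type. Growth factor signals through EGFR reach such regions through the MAP kinase pathway and AP-1, a dimer of JUN and FOS proteins that binds the sequence TGACTCA, read on the other strand as TGAGTCA. In bulk libraries, fewer cells with an open region and a less open region in each cell cannot be told apart.

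Of the 2069 regions, 708 were promoters, within 1 kb of a protein-coding start site and serving 674 genes, and 1361 were distal. Promoters made up 34.2% of them against 12.9% on the other chromosomes. The median GC content was 66.3% in promoters and 52.6% in distal regions, against 65.2% and 44.2% elsewhere. The short arm held 885 regions and the long arm 1184. A peak in all 17 libraries was found in 75 of the regions (3.6%), against 4.7% of those on the other chromosomes. Among promoters the shares were 9.3% and 21%. Among distal regions, 231 had a ZNF gene as their nearest gene. At the edge of the selection, the region kept nearest to a ZNF start site lay 1058 bases from ZNF567 and had a log2 change of 0.52 in SCC6, and the farthest region left out lay 921 bases from ZNF850 with log2 changes of 0.61 in SCC1, 0.07 in SCC6 and 0.55 in SCC25.

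Sequences are shown for 5 of the leading regions, so that promoters and distal regions that moved in SCC1 or SCC6 can be compared. Windows that overlapped an untranslated exon were passed over. The ATG4D promoter and the COX6B2 region, with smaller adjusted p among the SCC6 losses than those shown, were left out for this reason. Each is the central 200 bases on the plus strand of GRCh37, in lower case, with every AP-1 sequence on either strand in capitals. The first region lies 0.018 kb from the start of AP2A1 and was the promoter with the smallest adjusted p among those higher in SCC1.
AP2A1 promoter, chr19:50269783-50269982: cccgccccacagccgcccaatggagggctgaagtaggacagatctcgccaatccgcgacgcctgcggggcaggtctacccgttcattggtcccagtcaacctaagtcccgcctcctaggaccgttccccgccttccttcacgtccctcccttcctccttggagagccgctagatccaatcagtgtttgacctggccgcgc
MYH14 intron, distal, higher in SCC1, chr19:50718299-50718498: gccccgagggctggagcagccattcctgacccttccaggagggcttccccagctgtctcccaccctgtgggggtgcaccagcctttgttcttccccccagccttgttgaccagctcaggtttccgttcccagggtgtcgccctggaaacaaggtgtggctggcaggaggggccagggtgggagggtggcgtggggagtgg
RELB promoter, lower in SCC6, chr19:45504946-45505145: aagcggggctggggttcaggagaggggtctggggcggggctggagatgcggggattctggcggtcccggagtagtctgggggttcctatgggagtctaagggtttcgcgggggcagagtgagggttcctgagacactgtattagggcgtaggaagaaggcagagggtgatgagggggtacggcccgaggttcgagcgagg
LIPE-AS1 intron near CXCL17, distal, lower in SCC6, chr19:42959932-42960131: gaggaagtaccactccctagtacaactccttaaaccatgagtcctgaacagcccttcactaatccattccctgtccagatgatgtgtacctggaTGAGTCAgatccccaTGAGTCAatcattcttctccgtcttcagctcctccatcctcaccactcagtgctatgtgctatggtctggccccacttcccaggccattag
LINC02987 intron, distal, higher in SCC6, chr19:28462062-28462261: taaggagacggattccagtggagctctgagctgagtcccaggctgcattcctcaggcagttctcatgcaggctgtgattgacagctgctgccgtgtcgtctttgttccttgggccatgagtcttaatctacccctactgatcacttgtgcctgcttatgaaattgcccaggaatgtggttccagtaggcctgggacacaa
The region near CXCL17 held the AP-1 sequence at bases 95 and 110 of its window, and the other windows held none. None of the 5 held GCCNNNGGC, the core that TFAP2 factors bind. GC content was 66.5% in the MYH14 window, 64.0% in RELB, 63.5% in AP2A1, 52.5% in LINC02987 and 50.5% near CXCL17.

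Values are the deposited signal, whole reads scaled by 1 factor per library. Each library held between 2194851 and 15017130 reads in regions, and the median was 12 to 129 reads for a region of chromosome 19, and 5.41% to 21.2% of these regions at the floor of 1 read. SCC1 cetuximab replicate 2 was the shallowest library and stood apart in its group, with 1.53% of its 13035 peaks on chromosome 19 against 2.56% and 2.46% in the other two SCC1 cetuximab libraries. The squamous markers TP63, KRT5, CDH1 and GRHL2 had promoter regions with signal in all lines. In SCC6 the mean PBS signal was only 1.57 for KRT14 and 9.37 for KRT6A, and 18.05 for TP63 and 20.98 for KRT5. No promoter region was listed for PTPRC, CD3E and SPI1, which mark blood cells, or for PDGFRB and THY1 of fibroblasts. The fibroblast markers COL1A1 and COL1A2 had mean PBS signals of 100.4 to 130 and 8.79 to 38.88 over the lines.

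In SCC1, chromosome 19 gained accessibility with cetuximab, and its promoters gained most. The chromosome took 2.52%, 1.88% and 2.42% of all signal in the 3 cetuximab libraries against 1.38% and 1.40% in the 2 PBS libraries. The groups did not overlap, and the shallow replicate 2 was the lowest of the cetuximab libraries. Of 1712 regions tested, 408 rose and 10 fell (limma on the log2 of signal plus 1, Benjamini-Hochberg adjusted p under 0.05 over all 86321 regions tested), where 4.57% of all regions rose and 6.56% fell. Among promoters, 287 of 689 rose and 0 fell, against 13.6% and 1.6% of all promoters. For that count of 0, limma gave 0 promoters lower at an unadjusted p under 0.05, and edgeR and DESeq2 called 0. Among distal regions, 121 of 1023 rose and 10 fell, against 2.75% and 7.57% of all distal regions. The median log2 change was 0.81 in promoters and 0.50 in distal regions of chromosome 19, against 0.16 and -0.18 on the other chromosomes and -0.09 over all regions tested. The size of the count rested on single libraries: it was 601 higher and 14 lower without SCC1 cetuximab replicate 2, 152 and 8 with cetuximab replicate 1 left out, 226 and 7 with cetuximab replicate 3 left out, 125 and 0 with PBS replicate 1 left out, and 186 and 0 with PBS replicate 3 left out. In the last 2 fits the lone PBS library was assumed to vary as the cetuximab libraries do. The median of all regions moved from -0.09 to 0.10 with each library centred on its median, and 603 regions of chromosome 19 then rose and 7 fell.

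In SCC6, promoters of chromosome 19 moved the other way. The chromosome took 2.62%, 2.79% and 3.03% of the signal in cetuximab libraries and 3.12%, 3.20% and 3.01% in PBS libraries, with overlap between the groups. Of 1793 regions tested, 189 rose and 233 fell, where 16.9% and 10.6% of all regions did. Among promoters, 11 of 687 rose and 107 fell, against 3.77% and 10.9% of all promoters. Among distal regions, 178 of 1106 rose and 126 fell, shares near the 19.5% and 10.6% of all distal regions. The median log2 change was -0.20 in promoters and 0.04 in distal regions, against -0.11 and 0.22 on other chromosomes. The split of calls in SCC6 depended on the scaling. It was 140 higher and 482 lower with each library centred on its median, where the distal median turned to -0.13, 153 and 320 after quantile normalization and 157 and 272 after cyclic loess. It was 162 and 317 by edgeR and 117 and 233 by DESeq2. With libraries scaled to regions without a peak it was 337 and 89, the promoter median turned to 0.02 and the median of all regions rose from 0.11 to 0.33. Relative to that median, promoters of chromosome 19 were lower under each of these scalings. Without SCC6 cetuximab replicate 1, 140 regions rose and 153 fell.

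In SCC25, almost no region of chromosome 19 passed the test. Of 1736 regions tested, 1 rose and 0 fell, against 0.0405% and 0.275% of all regions, and the share of signal was 1.98%, 1.84% and 2.08% with cetuximab and 1.78%, 1.81% and 1.87% with PBS. None of 688 promoters was called (background 0.0276% in each direction), with 45 at an unadjusted p under 0.05, and edgeR and DESeq2 called 4 and 2 of them higher and 0 lower. Of 1048 distal regions, 1 rose and 0 fell, against 0.0432% and 0.324% of all distal regions. For the 0 lower regions, limma gave 67 at an unadjusted p under 0.05, edgeR called 2 and DESeq2 0. Scaling to regions without a peak gave 4 higher and 122 lower, with the promoter median at -0.24 and that of all regions at -0.37. Median log2 changes were 0.05 in promoters and 0.02 in distal regions, against 0.02 and -0.12 on other chromosomes.

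**Figure D1:**
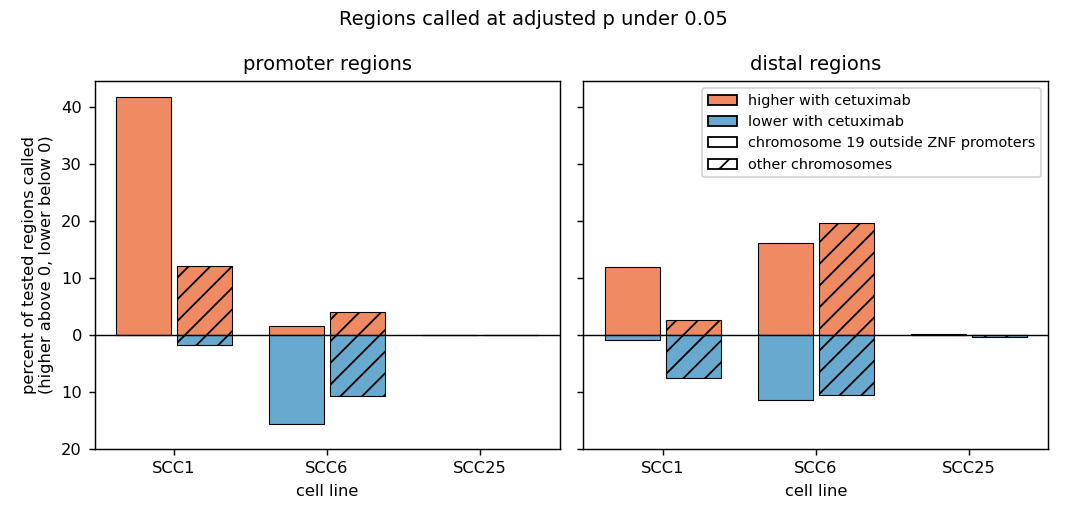
Percent of tested promoter regions (left) and distal regions (right) called higher (above 0) or lower (below 0) with cetuximab in each cell line, for chromosome 19 outside ZNF promoters (plain bars) and the other chromosomes (hatched bars). In SCC1, 41.7% of chromosome 19 promoters were called higher against 12.1% elsewhere, and in SCC6 15.6% were called lower against 10.7%, a direction that turned when libraries were scaled to regions without a peak.

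A fit over all lines together called fewer regions than the fits of SCC1 and SCC6. It tests an average change, which 1 line can carry, so its calls need not be common to the lines. Of 1721 regions, 84 rose and 17 fell, where 5.14% and 7.04% of all regions did. Promoters gave 9 higher and 1 lower of 686, against 1.86% and 2.0%, and distal regions 75 higher and 16 lower of 1035, against 5.79% and 8.05%. The change differed between lines (interaction of line and treatment) in 422 of 1721 regions, against 13.2% of all regions. These were 280 of 686 promoters and 142 of 1035 distal regions, where 13.5% of all promoters and 13.1% of all distal regions passed. Single libraries moved these counts: over all lines it was 50 higher and 8 lower without SCC6 PBS replicate 3, 52 and 16 with SCC1 PBS replicate 1 left out, and 55 and 17 with SCC1 PBS replicate 3 left out. The count of differing regions was 278 without SCC1 PBS replicate 1. Among the regions tested in all 3 lines, 54 of 678 promoters were called higher in SCC1 and lower in SCC6, 0 the reverse and 1 higher in both. The first count is 7.97% of these promoters, against 1.69% of 13750 promoters over all chromosomes, and it fell to 7, or 1.03% against 0.145%, when libraries were scaled to regions without a peak. Of 893 distal regions, 13 were higher in SCC1 and lower in SCC6, 1 the reverse, 22 higher in both and 2 lower in both. Over all 52961 distal regions these shares were 0.155%, 0.782%, 1.40% and 2.71%, against 1.46%, 0.112%, 2.46% and 0.224% on chromosome 19. In all, 93 regions were called in both lines, which is 22.6% of the 412 called in SCC1 and 26.1% of the 357 called in SCC6. Over all regions tested in the 3 lines, the regions called in both were 36.3% of the calls in SCC1 and 15.5% of those in SCC6.

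The level of chromosome 19 relative to the other chromosomes was also compared within each library, where a shared scaling factor largely cancels. In SCC1 PBS libraries, the median promoter of chromosome 19 lay -1.13 and -1.06 log2 units from the median promoter elsewhere. In SCC1 cetuximab libraries the gap was -0.36, -0.68 and -0.40, a mean of -0.48 ± 0.17 (SD, n = 3) against -1.09 ± 0.05 (SD, n = 2). All cetuximab libraries were above both PBS libraries, and the gap was smaller with cetuximab. In SCC25 the gap was -0.43 ± 0.12 with cetuximab and -0.43 ± 0.04 with PBS (SD, n = 3 each), with overlapping libraries. In SCC6, promoters of chromosome 19 lay near those elsewhere, at -0.01 ± 0.05 with cetuximab and 0.11 ± 0.06 with PBS (SD, n = 3 each), and every cetuximab library was below every PBS library. SCC1 PBS libraries had the lowest relative promoter level on this chromosome of the 6 groups. Distal regions in SCC1 moved from -0.44 ± 0.01 with PBS to 0.16 ± 0.25 with cetuximab. In SCC25 they moved from -0.34 ± 0.04 to -0.20 ± 0.09 without overlap, and in SCC6 from 0.38 ± 0.04 to 0.26 ± 0.12 with overlap.

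**Figure D2:**
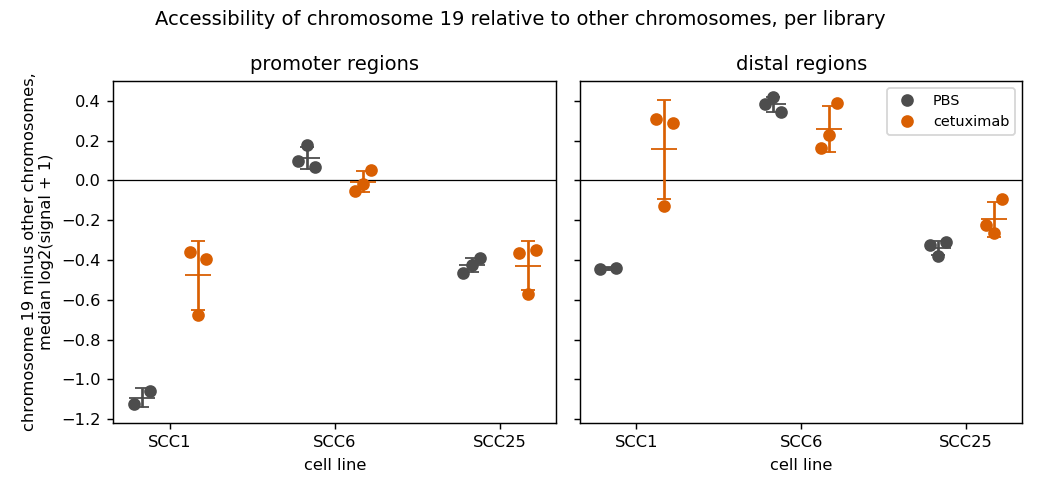
Median log2(signal + 1) of chromosome 19 regions minus that of the same class on the other chromosomes, for promoters (left) and distal regions (right). Points are libraries and bars the mean and SD for PBS and cetuximab in each line. In SCC1 the promoter gap was -1.13 and -1.06 with PBS and between -0.68 and -0.36 with cetuximab.

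The contrast between promoters and distal regions within chromosome 19 widened in SCC1 and narrowed in SCC6. The median promoter exceeded the median distal region by 1.62, 1.44 and 1.61 log2 units in SCC1 cetuximab libraries and by 1.06 and 1.13 in PBS libraries. In SCC6 it exceeded it by 1.00, 1.10 and 1.14 with cetuximab and by 1.38, 1.42 and 1.40 with PBS. In SCC25 the values were 1.18, 1.06 and 1.16 with cetuximab and 1.06, 1.14 and 1.14 with PBS, which overlap. On the other chromosomes the contrast also widened in SCC1 and narrowed in SCC6, from 1.75 ± 0.004 to 2.19 ± 0.18 in SCC1 (SD, n = 2 and 3) and from 1.67 ± 0.01 to 1.35 ± 0.13 in SCC6 (SD, n = 3 each). In SCC25 it widened there from 1.20 ± 0.02 to 1.37 ± 0.05 (SD, n = 3 each), with no overlap of the groups. Whether the change in this contrast differed between chromosomes was not tested. Expressed as median log2 changes, promoters minus distal regions gave 0.31 in SCC1, -0.24 in SCC6 and 0.03 in SCC25. With the GC trend of each library removed these were 0.114, -0.113 and -0.039, so that the sign turned in SCC25.

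The change with distance from a start site was graded in SCC1. Of 533 tested regions that overlapped a start site, 250 rose (46.9%) and 0 fell, with a median log2 change of 0.84, where 13.8% of such regions on the other chromosomes rose. The median was 0.70 at 1 to 1000 bases, 0.58 at 1 to 10 kb, 0.40 at 10 to 50 kb and 0.20 beyond 50 kb. On the other chromosomes the same classes had medians of 0.18, 0.03, -0.09, -0.17 and -0.22. In SCC6 the order was reversed, from -0.21 over start sites to 0.40 beyond 50 kb on chromosome 19 and from -0.13 to 0.29 elsewhere.

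Along the chromosome, the gain in SCC1 was present on both arms and interrupted around the centromere. Cut into 12 segments of 5 Mb from the end of the short arm, promoter medians in SCC1 were 0.85, 0.85, 0.89 and 0.75 in segments 1 to 4 and 0.75, 0.86, 0.90, 0.72 and 0.52 in segments 8 to 12. Segments 5 and 6 flank the centromere gap of 3.1 Mb and had only 2 and 1 promoters. Segment 7, at 30 to 35 Mb on the long arm, had 25 tested promoters with a median of 0.18 and 91 distal regions with -0.07, and 0 of these regions was called by limma. Segment 1 had 68 of 176 regions higher (38.6%) and segment 10 had 97 of 268 (36.2%), against 23.8% over the chromosome and 4.57% of all regions. Segment 10 holds ERCC1, ERCC2, FOSB, LIG1 and RPL13A. Distal medians in SCC1 followed the promoters in segments 1 to 4 and 8 to 11, at 0.22 to 0.80, and were 0.02 in segment 12. The selection left out 58 ZNF promoters in segment 12. It left out 34 each in segments 3 and 8, where distal medians were 0.80 and 0.47. The short arm had a promoter median of 0.83 with 145 of 345 higher, and the long arm 0.77 with 142 of 344 higher.

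In SCC6 the promoter medians were between -0.30 and -0.14 in segments 1 to 4 and 8 to 12, and between -0.08 and 0.09 when libraries were scaled to regions without a peak. Distal medians there were between -0.13 and 0.14, and they were highest in segments 5 and 6, at 0.51 and 0.36. In segment 5, where 22 ZNF promoters had been left out, 20 of 46 distal regions rose and 4 fell in SCC6, where 19.5% and 10.6% of all distal regions did. SCC25 had its highest distal medians in the same segments, 0.42 and 0.29, and SCC1 had -0.20 and 0.24 there. These segments had the lowest GC content, with a median of 43.95% and 44.8% over their regions, against 65.9% in segment 1.

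**Figure D3:**
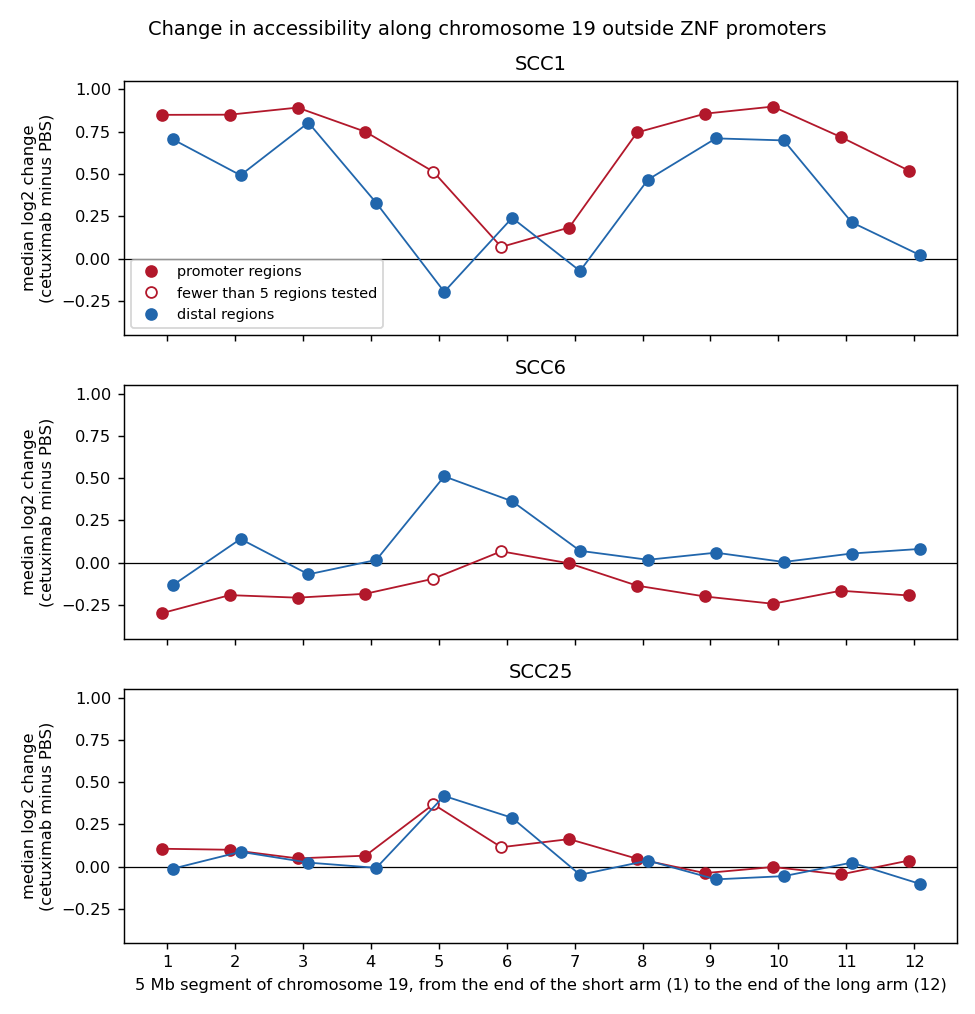
Median log2 change with cetuximab in 12 segments of 5 Mb along chromosome 19, for promoters (red) and distal regions (blue) in each line; open circles mark segments with fewer than 5 promoters tested. In SCC1 promoter medians were 0.52 to 0.90 on both arms and 0.18 in segment 7, in SCC6 they were between -0.30 and -0.14 in segments 1 to 4 and 8 to 12 (-0.08 to 0.09 when scaled to regions without a peak), and in SCC25 the largest distal median was 0.42 in segment 5.

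Among the 23 chromosomes with regions, chromosome 19 had the highest median change in SCC1 for promoters and for distal regions. Chromosomes 17 and 22, which are also gene-dense, came next, with promoter medians of 0.69 and 0.67 and distal medians of 0.18 and 0.33. The share of promoters that rose was 42.4% of 752 on chromosome 17 and 36.2% of 309 on chromosome 22, against 41.7% on chromosome 19. The gain in SCC1 was seen on these chromosomes too. Chromosome 16, with a promoter GC content of 67.4%, had a median of 0.41, and chromosome 20, with 67.6%, had 0.27. In SCC6 chromosome 19 ranked 22 of 23 for promoters, beside chromosome 22 with -0.21, and in SCC25 it ranked 6. The ZNF promoters left out had a median of 0.44 in SCC1, with 38 of 221 higher and 0 lower, and -0.11 in SCC6, with 3 higher and 16 lower of 238.

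**Figure D4:**
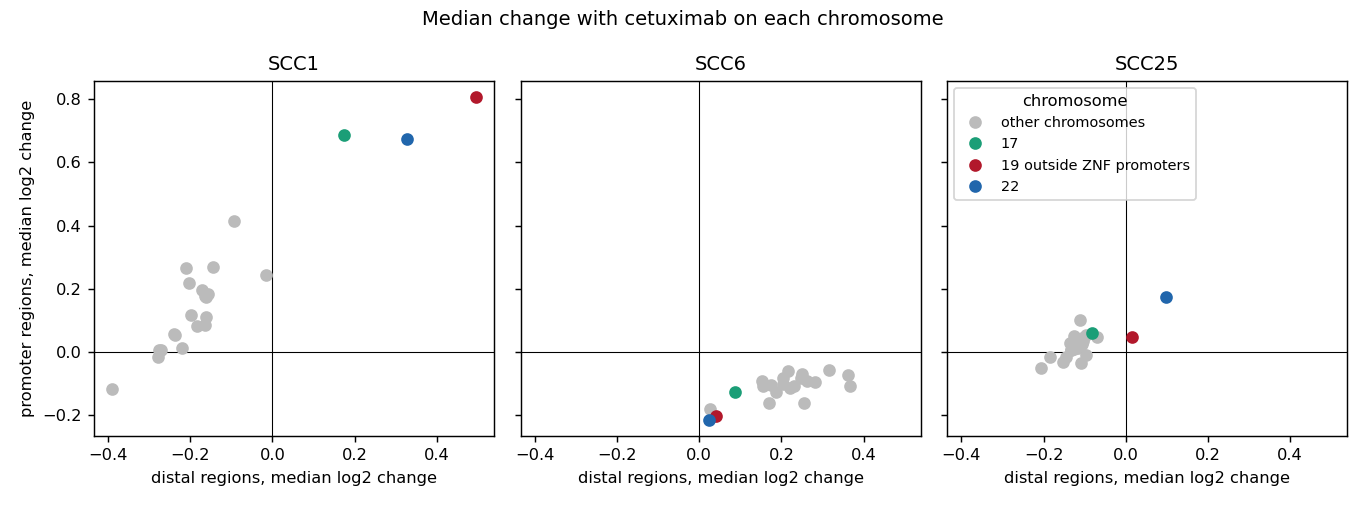
Median log2 change with cetuximab of distal regions (horizontal axis) and promoters (vertical axis) on each of 23 chromosomes, by line. In SCC1 chromosome 19 outside ZNF promoters lies at 0.50 and 0.81, with chromosomes 22 and 17 next to it, while in SCC6 and SCC25 all promoter medians lie between -0.21 and 0.17.

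GC content moved with the change and was set beside it. Over regions of chromosome 19, Spearman's correlation between GC content and log2 change was 0.26 over 1712 regions of SCC1, -0.34 over 1793 of SCC6 and 0.13 over 1736 of SCC25, as a description over regions that share libraries. Within classes of GC content, promoters of chromosome 19 in SCC1 had medians of 0.78 at a GC content of up to 61%, 0.80 at 61% to 68.9% and 0.83 above, against 0.00, 0.16 and 0.27 on other chromosomes. Distal regions in SCC1 had 0.19 up to 40.2% GC, 0.39 at 40.2% to 48.6% and 0.53 above, against -0.14, -0.25 and -0.13 elsewhere. On chromosome 19 these medians rest on 27, 208 and 788 tested regions, and 0 of the 27 was called by limma. In SCC1 chromosome 19 had the higher median in every GC class of promoters and distal regions. After the GC trend of each library was removed, the SCC1 medians were 0.60 in promoters and 0.48 in distal regions, with 305 regions higher and 6 lower. In SCC6 the promoter medians were -0.16, -0.20 and -0.24 on chromosome 19 and -0.05, -0.11 and -0.16 elsewhere, and removal of the trend left -0.10 in promoters and 0.02 in distal regions, with 48 promoters lower.

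The leading promoters in SCC1 were those of AP2A1 and PRMT1. AP2A1 encodes a subunit of the AP-2 adaptor that collects receptors for clathrin-mediated endocytosis. Its region (chr19:50269526-50270240, 64.3% GC, peaks in 17 libraries) had a signal of 558.5, 477 and 579 in SCC1 cetuximab libraries and 267 and 233 in PBS libraries. The log2 change was 1.10 ± 0.15 (SE, adjusted p 2.36e-09 by limma). Leading regions of a line were taken only from those whose groups did not overlap, as in 59.65% of tested SCC1 promoters of chromosome 19. Such shares were not counted on other chromosomes. They describe the choice of regions here and below, and not a trait of chromosome 19. In SCC6 its mean signal was 424 ± 34.1 with cetuximab and 432 ± 25.8 with PBS, and in SCC25 217 ± 34.1 and 234 ± 6.4 (SD, n = 3 each), with overlap in both lines. PRMT1, a protein arginine methyltransferase, had 574, 362 and 458.5 against 208 and 201 in SCC1 (chr19:50179722-50180509, untranslated exon), a log2 difference of 1.15 ± 0.16 (SE, adjusted p 5.73e-09 by limma). In SCC6 the PRMT1 promoter went the other way, with 287, 305 and 347 against 394, 369 and 357, a log2 difference of -0.26 ± 0.09 (SE, adjusted p 0.0338 by limma), a call lost in 9 of 18 alternatives. Its SCC6 groups did not overlap, as in 33.3% of tested SCC6 promoters of chromosome 19.

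Distal gains in SCC1 were led by introns of MYH14 and SULT2B1, which encode a non-muscle myosin heavy chain and a cholesterol sulfotransferase of squamous epithelium. The MYH14 region (chr19:50717974-50718825, 4.35 kb from the start) had 213, 123 and 161 in SCC1 cetuximab libraries and 63.8 and 58.1 in PBS libraries, a log2 difference of 1.39 ± 0.24 (SE, adjusted p 4.58e-06 by limma). It also rose in SCC6, from 172, 200 and 194 to 228, 250 and 260, with 0.38 ± 0.11 (SE, adjusted p 0.00854 by limma). The SULT2B1 region (chr19:49057056-49058047, 1.63 kb from the start) had 201, 171 and 177 against 69.0 and 78.2 in SCC1, a log2 difference of 1.30 ± 0.23 (SE, adjusted p 6.04e-06 by limma). Both regions had peaks in a part of the libraries, 13 and 6 of 17.

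Losses in SCC1 were few and distal. A region in an intron of PBX4, a homeobox transcription factor (chr19:19701963-19702329, 48.5% GC), had 33.0, 13.6 and 47.0 with cetuximab and 80.7 and 78.2 with PBS. Its log2 change was -1.48 ± 0.36 (SE, adjusted p 0.00162 by limma). A region in an exon of the non-coding ZNF542P, 8.74 kb from the start of ZSCAN5A (chr19:56888495-56889263, 42.1% GC), had 108, 101.2 and 124 against 213 and 192, a log2 difference of -0.87 ± 0.22 (SE, adjusted p 0.00307 by limma). Both were chosen among regions whose SCC1 groups did not overlap, as in 39.1% of tested distal regions of chromosome 19, a share not counted elsewhere. The PBX4 region had log2 changes of -0.31 in SCC6 and 0.00 in SCC25 that did not pass the test.

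In SCC6 the promoters with the smallest adjusted p among those that fell were ATG4D and RELB. ATG4D encodes a protease of autophagy. Its promoter (chr19:10654220-10654760, 76.0% GC, untranslated exon) had 116.2, 110.5 and 116 with cetuximab and 209, 203 and 176 with PBS in SCC6, a log2 difference of -0.77 ± 0.13 (SE, adjusted p 1.27e-05 by limma). In SCC1 the same promoter rose, from 20.8 and 29.0 to 57.1, 54.5 and 62.6, with 1.20 ± 0.36 (SE, adjusted p 0.0138 by limma), a call lost in 4 of 17 alternatives. RELB encodes a subunit of NF-kB, and its promoter (chr19:45504548-45505545) had 103, 97.5 and 119 against 164, 213 and 184 in SCC6, a log2 difference of -0.80 ± 0.14 (SE, adjusted p 1.65e-05 by limma). Its log2 change in SCC1 was 0.37 with an adjusted p of 0.443 (limma).

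Only 11 promoters rose in SCC6, led by PLEKHF1 and EVI5L. PLEKHF1, an endosomal protein with a phosphoinositide-binding domain, had 150.5, 134 and 151 against 74.9, 81.0 and 65.3 in SCC6 (chr19:30154878-30155634, 0.73 kb from the start), a log2 difference of 0.97 ± 0.16 (SE, adjusted p 6.85e-06 by limma). This promoter lies in segment 7, and in SCC1 its log2 change was -0.34 (adjusted p 0.572, limma). EVI5L, related to proteins that act on Rab GTPases, rose from 15.7, 18.1 and 17.4 to 40.4, 50.1 and 58.9 in SCC6, a log2 difference of 1.48 ± 0.28 (SE, adjusted p 6.83e-05 by limma). It was also one of the 9 promoters higher in the fit over all lines, at 1.11 (limma adjusted p 0.0197). On its own it did not pass in SCC1 or SCC25 (limma adjusted p 0.595 and 0.408).

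The distal gains in SCC6 with the smallest adjusted p were in 2 introns. The region in an intron of the non-coding LINC02987, 1242 kb from UQCRFS1 (chr19:28461959-28462365), had 223, 212 and 216 with cetuximab and 62.8, 54.9 and 44.6 with PBS. Its log2 change was 2.00 ± 0.16 (SE, adjusted p 7.33e-14 by limma). A region in an intron of ARHGEF18, a guanine nucleotide exchange factor (chr19:7440976-7441496), had 177, 162.5 and 161 against 31.4, 50.2 and 55.5, with 1.88 ± 0.19 (SE, adjusted p 5.56e-11 by limma). Both were chosen among regions whose SCC6 groups did not overlap, as in 39.4% of tested distal regions of chromosome 19, a share not counted elsewhere.

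One of the distal losses in SCC6 with the smallest adjusted p was the region near CXCL17, a chemokine gene of mucosal epithelium, whose window holds the AP-1 sequence at 2 places (chr19:42959856-42960209, 12.8 kb from the start, in an intron of the non-coding LIPE-AS1). It had 16.2, 19.5 and 23.1 with cetuximab and 89.4, 92.3 and 80.5 with PBS in SCC6, a log2 difference of -2.11 ± 0.25 (SE, adjusted p 3.71e-09 by limma). In SCC1 it had 11.4, 9.73 and 17.2 against 31.2 and 23.5, which do not overlap, with a log2 change of -1.06 that did not pass the test (adjusted p 0.221, limma). In SCC25 it had 23.9, 23.5 and 40.7 against 40.7, 45.4 and 47.5. A region in the untranslated exon of COX6B2, a cytochrome c oxidase subunit of testis (chr19:55863388-55863746), had 57.6, 34.4 and 60.5 against 139, 159 and 163 in SCC6, a log2 difference of -1.62 ± 0.19 (SE, adjusted p 3.64e-09 by limma).

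The one region called in SCC25 lies in an intron of RPSA2 (chr19:24005504-24005928, segment 5, 59.7 kb from the nearest start). It had 57.7, 37.1 and 54.9 with cetuximab and 23.0, 16.6 and 19.5 with PBS in SCC25, a log2 difference of 1.28 (limma adjusted p 0.0447), a call lost in 6 of 18 alternatives. It rose in SCC6 as well, from 68.9, 67.6 and 53.3 to 121.2, 110 and 121, with 0.89 ± 0.18 (SE, adjusted p 0.000139 by limma). In SCC1 its libraries overlapped, with 6.35, 29.2 and 15.7 against 15.6 and 17.9.

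**Figure D5:**
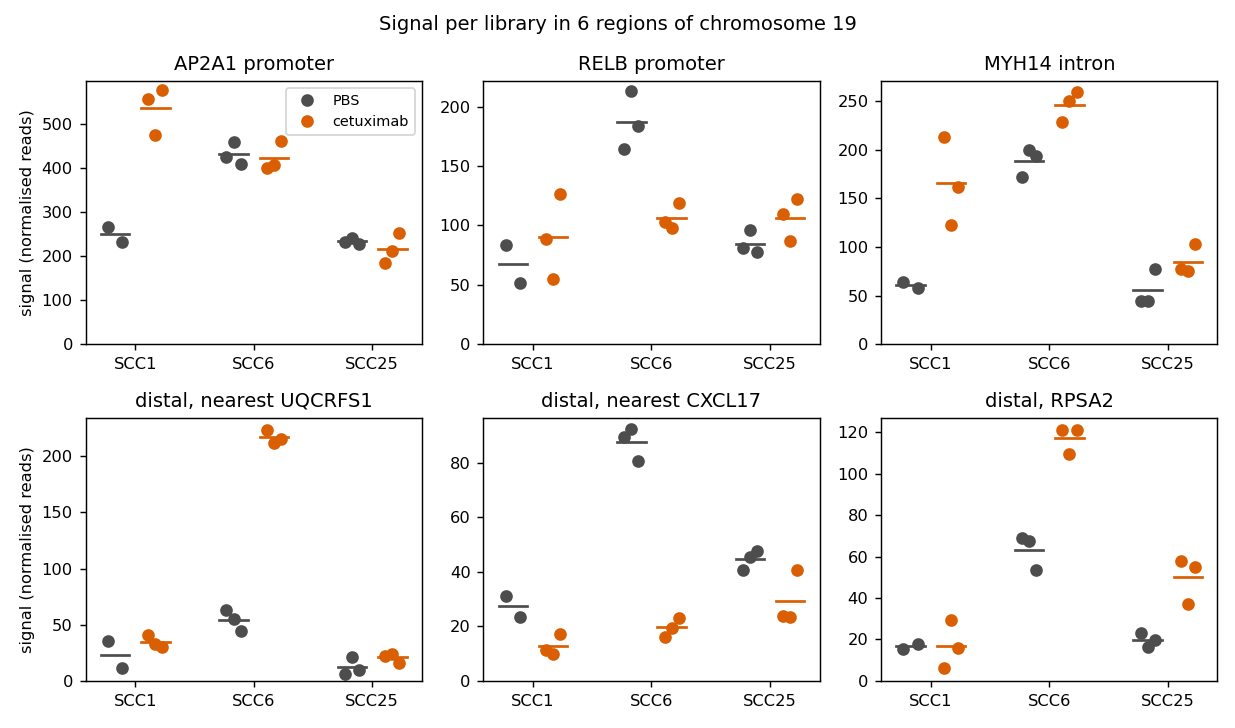
Signal (normalised reads) in each library for 6 regions of chromosome 19, with a line at the mean of each group; PBS in grey and cetuximab in orange. AP2A1 and MYH14 were higher with cetuximab in SCC1, RELB and the region near CXCL17 were lower in SCC6, and the RPSA2 region was higher in SCC6 and SCC25.

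Over all lines together, 4 distal regions had the smallest p among those whose log2 change had the same sign in each line, 2 higher and 2 lower. A region 1.43 kb from ZNF814 (chr19:58401838-58402575), just outside the promoter window, rose by 2.16 on the log2 scale (limma adjusted p 0.00106), with the largest log2 change in SCC6, where signals were 137, 172 and 162 against 21.8, 12.7 and 5.44. A region in an exon of ZNF714, nearest to ZNF431 (chr19:21299917-21300231), rose by 2.00 (limma adjusted p 0.000251). An intron of CCNE1, the gene of cyclin E1 (chr19:30310969-30311215), had a log2 difference of -1.85 (limma adjusted p 0.000297), with 5.05, 6.50 and 5.95 against 60.4, 61.6 and 29.4 in SCC6. This region had a peak in only 2 of 17 libraries. Its mean signal was low in the other lines, 2.44 against 6.60 in SCC1 and 2.95 against 9.61 in SCC25. An intron of ZNF426 (chr19:9642642-9642924) had -2.32 (limma adjusted p 0.000105). The regions of ZNF814, ZNF431 and ZNF426 also had few peaks, in 3, 3 and 4 of 17 libraries. Some of their means were near the floor. PBS means were 2.51 for ZNF814 in SCC1 and 1.21 for ZNF431 in SCC25. Cetuximab means for ZNF426 were 2.64 in SCC1 and 2.75 in SCC6. Each of these 4 regions passed in SCC6 on its own. In SCC1 only that of ZNF426 passed (limma adjusted p 0.0226), and in SCC25 none did (limma adjusted p 0.116 to 0.5). Among promoters, the region 0.60 kb from LHB had 0.52 (limma adjusted p 0.0231) and that of FPR1, a formyl peptide receptor whose region also serves FPR2, had -1.04 (limma adjusted p 0.0314), calls lost in 3 and 7 of 28 alternatives.

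The promoters of gene groups on the chromosome were counted on the region of highest mean signal per gene. The shares to set beside each list are those over all promoters, 13.6% higher in SCC1 and 10.9% lower in SCC6, and those over the promoters of chromosome 19, 41.7% and 15.6%. These shares include weaker promoter regions, so they are not a like base for lists of the strongest region per gene. For chromosome 19 regions that overlap a start site they were 46.9% and 16.7%. Whether any list exceeded a like base was not tested. Of 17 promoters of EGFR, RAS and AKT signalling genes, 11 rose in SCC1 (64.7%) and 0 fell, with a median log2 change of 1.00, and 6 fell in SCC6 (35.3%) and 0 rose, with -0.32. The medians over all regions tested were -0.09 and 0.11, and 0 of the 17 was called in SCC25 by limma. When SCC6 libraries were scaled to regions without a peak, 1 of the 17 fell and the median was -0.10, and for the lists that follow 0 or 1 promoters fell and medians lay between -0.083 and 0.044. In SCC1 every list kept a median above 0 under each scaling. PIK3R2, a regulatory subunit of PI3K, had 221, 179 and 293 against 114.5 and 104 in SCC1, a log2 difference of 1.046 (limma adjusted p 7.42e-05), and 195, 187.5 and 205 against 226, 274 and 244 in SCC6, a log2 difference of -0.33 (limma adjusted p 0.0214). MAP2K7, a kinase upstream of JNK, had 1.07 in SCC1 (limma adjusted p 0.00119) and -0.35 in SCC6 (limma adjusted p 0.0395). The SCC6 calls of PIK3R2 and MAP2K7 were lost in 6 and 10 of 18 alternatives. RRAS, a small GTPase, had 550, 348 and 513 against 264 and 255 in SCC1, a log2 difference of 0.83 (limma adjusted p 3.06e-05), and -0.06 in SCC6, which did not pass.

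Of 8 promoters of AP-1 and immediate early genes, 4 rose in SCC1 and 2 fell in SCC6, with medians of 0.89 and -0.30. The share that rose, 50%, was near the 41.7% of all promoters of the chromosome. JUND, a subunit of AP-1, had 165, 126.5 and 202 against 74.2 and 88.2 in SCC1, a log2 difference of 0.99 (limma adjusted p 0.00118). FOSB, another subunit, had 0.88 in SCC1 (limma adjusted p 0.0211), a call lost in 5 of 17 alternatives, with its lowest cetuximab library, replicate 2 at 56.5, below the higher PBS library at 64.8. IER2 and PPP1R15A, both induced early after stress or growth signals, rose in SCC1 by 0.79 and 0.90 (limma adjusted p 0.0393 and 0.0289), calls lost in 8 and 5 of 17 alternatives, and PPP1R15A libraries overlapped. In SCC6 their log2 changes were -0.35 and -0.94 (limma adjusted p 0.00298 and 0.00174), and PPP1R15A had 34.4, 29.7 and 49.3 against 77.3, 65.6 and 72.9.

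Of 17 promoter regions of chromatin regulators, 12 rose in SCC1 (70.6%, against 41.7% of the chromosome's promoters) and 7 fell in SCC6 (41.2%, against 15.6%), with medians of 0.92 and -0.31. DNMT1, the maintenance DNA methyltransferase, had 178, 93.4 and 138 against 59.9 and 61.4 in SCC1, a log2 difference of 1.11 (limma adjusted p 0.000835), and 162, 205 and 181 against 210.2, 239 and 239 in SCC6, a log2 difference of -0.33 (limma adjusted p 0.0301) that was lost in 8 of 18 alternatives. CHAF1A, a histone chaperone of replication, had 1.20 in SCC1 (limma adjusted p 0.00114) and -0.03 in SCC6. The promoter shared by SIRT2 and NFKBIB had 151, 142 and 150.2 against 70.3 and 75.9 in SCC1, a log2 difference of 1.01 (limma adjusted p 0.00141). Of 11 cell cycle and DNA repair promoters, 8 rose in SCC1 (72.7%) and 1 fell in SCC6 (9.09%), with medians of 0.89 and -0.18. LIG1, a DNA ligase whose promoter region also serves ZSWIM9, was the one called in both, at 1.08 in SCC1 (limma adjusted p 4.05e-05) and -0.41 in SCC6 (limma adjusted p 0.0136, lost in 5 of 18 alternatives). ERCC2, ERCC1 and BABAM1 rose in SCC1 by 1.11, 1.00 and 1.03 (limma adjusted p 0.00357, 0.00149 and 0.00216).

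Ribosomal protein genes gave 7 of 11 promoters higher in SCC1 (63.6%, against 41.7% on the chromosome) and 2 lower in SCC6 (18.2%, against 15.6%), with medians of 0.93 and -0.19. RPL13A had 184, 109 and 164 against 74.2 and 51.4 in SCC1, a log2 difference of 1.26 (limma adjusted p 6.5e-05). The region of RPL36 also serves HSD11B1L and MICOS13 and had 1.26, and that of RPS16 also serves SUPT5H and had 1.48 (limma adjusted p 5.36e-05 and 0.000545). Of 9 promoters of TGF-beta, Notch and NF-kB genes, 5 rose in SCC1 (55.6%) and 1, RELB, fell in SCC6 (11.1%). IRF3, shared with BCL2L12, and TYK2 rose in SCC1 by 1.25 and 1.09 (limma adjusted p 0.000189 and 0.00172), and their 2 PBS libraries lay far apart, at 88.5 and 34.6 for IRF3 and 103 and 35.7 for TYK2.

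Genes of epithelial adhesion and cornification had 13 promoters, of which 4 rose in SCC1 and 3 fell in SCC6, with medians of 0.54 and -0.21. The share that rose, 30.8%, was below the 41.7% of the chromosome's promoters, and the share that fell was 23.1% against 15.6%. SPINT2, an inhibitor of serine proteases, had 142, 128.5 and 142 against 63.8 and 71.5 in SCC1, a log2 difference of 1.02 (limma adjusted p 0.00178). The fit over all lines gave SPINT2 0.43 (limma adjusted p 0.0201), but the lines differed. Its log2 change was -0.06 in SCC6 and 0.45 in SCC25, and neither passed (limma adjusted p 0.644 and 0.202). LSR, a protein of tricellular junctions, had 0.77 in SCC1 (limma adjusted p 0.00787). PLAUR, the urokinase receptor, had 0.61 in SCC1 and -0.44 in SCC6 (limma adjusted p 0.0446 and 0.00146), the first call lost in 7 of 17 alternatives. MUC16, a membrane mucin, fell in SCC6 from 60.4, 49.5 and 42.4 to 17.2, 24.1 and 21.5, a log2 difference of -1.24 (limma adjusted p 0.000495), and did not pass in SCC1 at -0.18. Of the 15 kallikrein genes only 4 had a promoter region. KLK15 rose in SCC1 by 1.84 (limma adjusted p 0.00266) from PBS signals of 19.5 and 5.58, and KLK4, KLK6 and KLK9 passed in no line. Zinc finger genes with other symbols had 9 promoters, of which 3 rose in SCC1 (33.3%) and 1 fell in SCC6 (11.1%). These were ZBTB7A, ZBTB45 and MZF1 in SCC1, at 0.95, 0.74 and 0.51 (limma adjusted p 0.0105, 0.00541 and 0.0439), and ZFP30 in SCC6 at -0.33 (limma adjusted p 0.0354). The ZBTB7A and MZF1 calls were lost in 5 and 9 of 17 alternatives and that of ZFP30 in 9 of 18. In SCC25, 0 promoters of any list were called by limma.

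Motif content of the distal regions differed with direction, as a description with no test. The AP-1 sequence was in the central 200 bases of 22.5% of distal regions of chromosome 19 and 23.1% of those elsewhere, and of 4.8% and 6.13% of promoters. Among distal regions tested in SCC6 it was in 24.3%, in 49 of the 126 that fell (38.9%) and in 38 of the 178 that rose (21.3%). In SCC1 it was in 26.3% of those tested, 19 of the 121 that rose (15.7%) and 5 of the 10 that fell. GCCNNNGGC was in 11.2% of distal regions of chromosome 19 and 6.0% of those elsewhere. It was in 28 of the 121 distal regions that rose in SCC1 (23.1%) against 14.6% of those tested, and in 21 of the 126 that fell in SCC6 (16.7%) against 12.4%. This sequence is itself rich in G and C. In these distal regions Spearman's correlation of GC content with log2 change was 0.18 in SCC1 and -0.33 in SCC6. Whether motif content differed at like GC content was not tested. In promoters it was in 24.7% on chromosome 19 and 24.5% elsewhere.

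Peaks called in single libraries showed the same order within SCC1 despite lower totals. Peaks of chromosome 19 were 693, 200 and 567 of 27086, 13035 and 23017 in SCC1 cetuximab libraries and 515 and 461 of 36033 and 34763 in PBS libraries. As shares these were 2.56%, 1.53% and 2.46% against 1.43% and 1.33%, with no overlap. Promoters with a peak were 350, 107 and 308 of 708 against 234 and 215, so that the shallow replicate 2 fell below both PBS libraries in this count. In SCC6 the shares were 2.45%, 2.49% and 2.48% against 2.83%, 2.75% and 2.72%, and in SCC25 1.68%, 1.83% and 1.78% against 1.86%, 1.84% and 1.91%. Both were lower with cetuximab and without overlap, narrowly so in SCC25. The share of signal in SCC25 went the other way, with a mean of 1.97% with cetuximab and 1.82% with PBS and overlapping libraries.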

How the data were processed

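ATAC-seq was analysed in 17 libraries of 6 groups (a cell line with cetuximab or PBS); groups came from the labels. According to the submitters' processing notes and methods, the authors trimmed reads with Trim Galore 0.5.0, aligned them with Bowtie2 2.3.2 to hg19, removed duplicate and mitochondrial reads with Picard 2.18, filtered with SAMtools 1.9, called broad peaks per library with MACS2 and merged them with DiffBind. The deposited region table holds a signal per library, whole reads (0 set to 1) times 1 step; 100% of values were whole within a tolerance of 0.001. The deposited peak lists hold a ratio (fold enrichment) and, as −log10, the p-value and q-value of each peak. Positions, counts and fold were read.

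Changes were tested with limma 3.58.1 (trend, robust, two-sided) in R 4.3.3 on log2(signal + 1), after the 25% of regions lowest in mean were left out, with Benjamini-Hochberg adjustment over all regions tested at 0.05. This scale understates changes of low regions. Lines were fitted separately. A fit over all lines had line as covariate, and an F-test gave the interaction. The plan named edgeR if the table held counts; it holds scaled signal, so edgeR 4.0.16 and DESeq2 1.42.0 on recovered reads were alternatives. Promoters were regions within 1 kb of a start site of GENCODE release 44 mapped to GRCh37. Sequences came from GRCh37. The fits were tested on simulated data. Other alternatives were scalings, pseudocounts of 5 and 0.5, no filter, GC correction, single libraries left out, and a replicate block.

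The members, lists and tests were chosen with earlier results of these data known. Regions named are, per line and class, the 2 higher and the 2 lower of smallest adjusted p whose groups do not overlap, the same over all lines, and up to 4 genes per list; a few of these are not reported here. Replicate pairs differed by more than counting noise, so no library was counted as a duplicate. Reads in regions (2194851 to 15017130) limit precision; total reads are unknown.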

Additional observations from a re-analysis of the deposited data

Results flagged for a closer look

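The change with cetuximab differed between SCC1, SCC6 and SCC25 in 422 of 1721 regions of chromosome 19 (limma, interaction of line and treatment, adjusted p under 0.05 over all regions tested), against 13.2% of all regions. Named regions past this test are given here with the adjusted p of that interaction, by nearest gene. Groups had 2 or 3 libraries, so no library was tested for standing apart. In limma the adjusted p was 0.0162 for ZBTB7A, 0.00182 for HSD11B1L, 0.0213 for ARHGEF18, 0.00606 for MAP2K7 and 0.0294 for MUC16. By limma it was 0.000979 for DNMT1, 0.0168 for TYK2, 0.000246 for ATG4D, 0.000613 for IER2, 0.00487 for BABAM1 and 0.000511 for PIK3R2. By limma it was 0.00226 for JUND, 0.0283 for PBX4, 0.00294 for PLEKHF1, 0.00166 for LSR, 0.00156 for SPINT2 and 0.00108 for SIRT2. By limma it was 0.0107 for SUPT5H, 0.0436 for CXCL17, 0.00871 for PLAUR, 0.0182 for RELB, 0.00079 for ERCC2 and 0.0044 for ERCC1. By limma it was 0.0472 for FOSB, 0.00017 for LIG1, 0.0131 for PPP1R15A, 0.0007 for RPL13A and 0.00274 for RRAS. By limma it was 0.0183 for IRF3, 4.96e-05 for PRMT1, 2.14e-05 for AP2A1, 0.0186 for COX6B2, 0.0167 for ZSCAN5A and 0.0114 for ZNF814. By limma it was  and 0.00744 for ZBTB45.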

How the results depend on the processing

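Counts of regions called in each line kept their direction of excess in SCC1 under every alternative run. In SCC1, 408 higher became 225 at an adjusted p under 0.01 and 125 to 601 with single libraries left out, and 10 lower became 6 with the GC trend removed, 25 with all libraries in 1 fit, 4 by DESeq2, 4 at an adjusted p under 0.01 and 0 to 14 with single libraries left out. In SCC6, 189 higher became 337 when scaled to regions without a peak, 112 in 1 fit, 117 by DESeq2, 123 at 0.01 and 135 to 194 with libraries left out, and 233 lower became 482 centred, 89 scaled to regions without a peak, 72 in 1 fit, 110 at 0.01 and 153 to 278 with libraries left out. In SCC25, 1 higher became 2 centred, with loess or a pseudocount of 5, 4 with quantile normalization, scaling to regions without a peak or DESeq2, 10 by edgeR and 0 in 1 fit or at 0.01, and 0 to 3 with libraries left out. In SCC25, 0 lower became 122 scaled to regions without a peak, 2 with a pseudocount of 5, without the filter or by edgeR, and 0 to 3 with libraries left out. Over all lines, 84 higher became 141 by DESeq2, 19 at 0.01 and 50 to 92 with libraries left out, and 17 lower became 28 by edgeR and DESeq2, 3 at 0.01 and 8 to 25. The interaction count of 422 became 654 centred, 665 by edgeR, 189 at 0.01 and 278 to 629.

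Promoter minus distal medians in SCC1 were 0.114 with the GC trend removed, 0.465 without the filter, 0.456 for distal regions over 10 kb from a start site and 0.244 to 0.358 with libraries left out. In SCC6 they were -0.155 with quantile normalization, -0.149 with loess, -0.113 with the GC trend removed, -0.173 without the filter, -0.328 over 10 kb and -0.264 to -0.207 with libraries left out. In SCC25 the sign turned, to -0.039 with the GC trend removed and -0.044 without the filter, and was 0.023 to 0.101 with libraries left out. The causes of these shifts were not tested.

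With the replicate number as a block, SCC1 cetuximab replicate 2 had no PBS partner and did not inform the treatment effect. In SCC1 606 regions were then higher and 14 lower, near the 601 and 14 without that library. Block counts were 195 and 238 in SCC6, 4 and 2 in SCC25, and 30 and 4 over all lines, with 602 for the interaction. Same-numbered libraries correlated at -0.042 to 0.0265 in their deviations from group means, so the numbers do not show pairing. Of 75 calls at regions chosen by the naming rule, 35 held under every alternative and 0 reversed. Few reads per region, 2 SCC1 PBS libraries and replicates of unstated origin limit what can be told apart.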
